A study of Monodelphis domestica with 2 samples.

Results

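Vip interneurons of the opossum primary visual cortex (V1) were taken here as the nuclei that carried the subclass label Vip in the authors' deposited annotation, and 506 nuclei did. They stood among 4347 labelled GABAergic nuclei, 32764 labelled nuclei of all classes and 36558 deposited barcodes. The nuclei came from 2 adult male gray short-tailed opossums (*Monodelphis domestica*), animal 1 at 1.5 years and animal 2 at 2 years, which formed a single untreated group. V1 of both hemispheres was pooled within an animal, frozen for about a year, and brought to suspension by a different experimenter for each animal, so animal, age and experimenter cannot be told apart. Nuclei were sorted for the DNA dye Draq5, and each suspension was loaded into 2 droplet wells, which gave the libraries 1A and 1B for animal 1, and 2A with 2B for animal 2. Libraries of an animal are technical repeats, so errors are SDs over the 2 animals, and p-values measure only the spread between these 2 animals.

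Vip interneurons are inhibitory cells of the neocortex that arise in the caudal ganglionic eminence (CGE) of the embryo, as do the Lamp5 and Sncg-related interneurons, whereas Pvalb and most Sst interneurons arise in the medial ganglionic eminence (MGE). They release GABA together with vasoactive intestinal peptide, and in rodents many of them contact other interneurons, above all Sst cells, so that their firing can release pyramidal cells from inhibition. Serotonin and acetylcholine are known to excite them through ionotropic receptors. The closest neighbour compared here, Frem1, is a further CGE subclass of the same annotation.

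Libraries 1A and 1B contributed 131 and 111 Vip nuclei and libraries 2A and 2B 132 each, with 0 cell barcodes shared between libraries among them (109 over all labelled nuclei). Vip nuclei held 1266386 summed UMIs (unique molecular identifiers, each standing for a captured RNA molecule) in animal 1 and 1346438 in animal 2. Their median depth was 4909 and 4681.5 UMIs per nucleus, with 2361.5 and 2251.5 genes detected. The other GABAergic subclasses had medians of 4713 to 7195 UMIs, so Vip nuclei were the shallowest of the 5 in each animal. Scrublet, a doublet caller run by the authors, had marked 2 of 242 Vip nuclei in animal 1 and 9 of 264 in animal 2.

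The markers given with the label were measured first, as CPM, a gene's UMIs scaled to the total UMIs of the summed nuclei. VIP, which encodes the peptide, stood at 251, 231, 228 and 253 CPM in Vip nuclei of libraries 1A, 1B, 2A and 2B, against 3.67 and 2.17 CPM in all other labelled GABAergic nuclei of animals 1 and 2. The mean over animals was 240 ± 1.76 CPM (SD, n = 2) in Vip and 2.92 ± 1.06 in the others. Each of the 4 Vip libraries lay far above the other GABAergic nuclei, and the next highest of all 18 subclasses was Frem1 in both animals, at 38.3 and 9.22 CPM. PROX1, a transcription factor of CGE interneurons, stood at 222, 207, 197 and 135 CPM in the Vip libraries and 13.9 and 15.5 CPM in the other GABAergic nuclei. GAD2, a GABA-synthesising enzyme of all GABAergic cells, was present at 241, 261, 252 and 256 CPM, below the 571 and 583 CPM of the other GABAergic nuclei. GAD2 was at its lowest level of the 5 GABAergic subclasses in Vip. The labels were drawn by the authors from clusters and canonical markers of these same counts, so these levels describe the label and are no independent support for it.

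**Figure D1:**
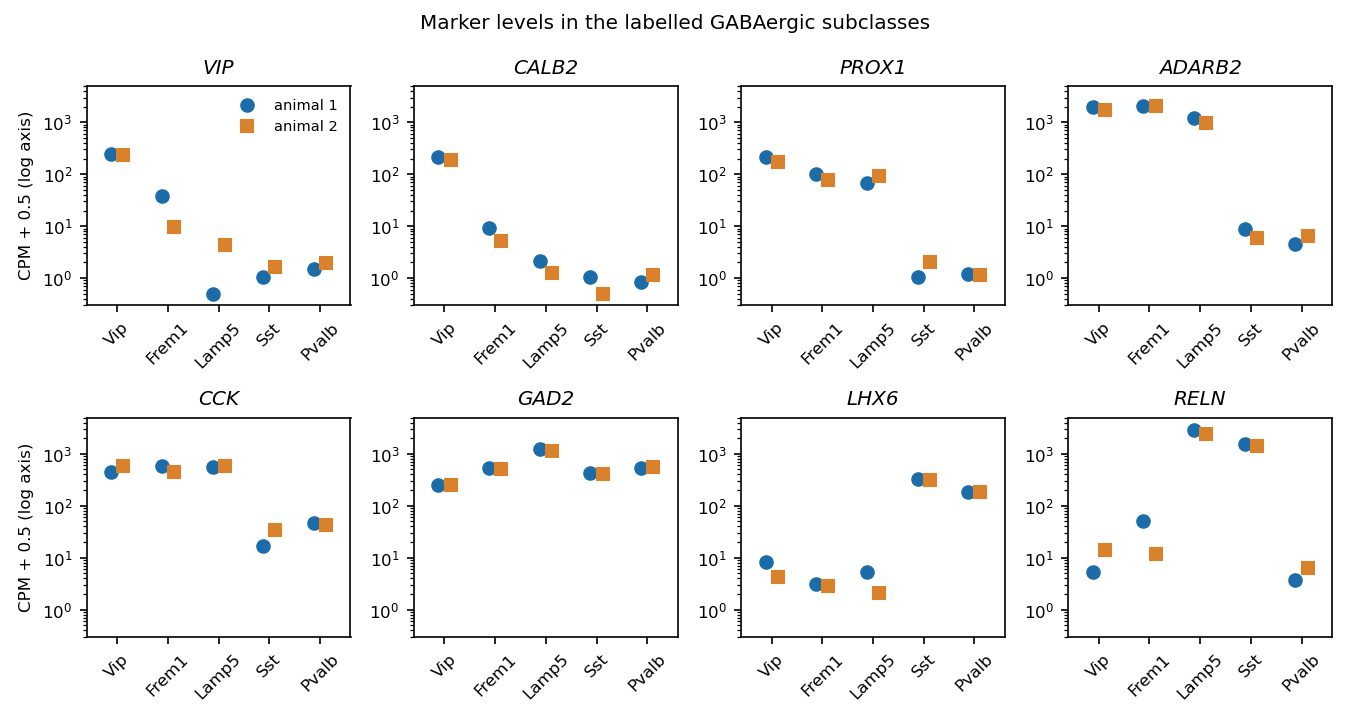
Summed level of 8 genes in the 5 labelled GABAergic subclasses, as CPM plus 0.5 on a log axis, with a circle for animal 1 and a square for animal 2. VIP and CALB2 stand highest in Vip, PROX1, ADARB2 and CCK are shared with Frem1 and Lamp5, GAD2 is lowest in Vip, and LHX6 and RELN stand at most at 7.90 and 13.4 CPM there.

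In single nuclei the defining transcripts were sparse. Unthinned, 59.9% (95% exact binomial interval 53.4 to 66.1) and 56.4% (50.2 to 62.5) of Vip nuclei held a VIP UMI, with a median of 1 VIP UMI per nucleus and a maximum of 11 and 10. With every nucleus thinned to 2000 UMIs, which left out 24 and 31 shallower Vip nuclei, the shares were 40.8% and 36.9% for VIP and 39.4% and 34.8% for CALB2. Oligodendrocytes, which should lack both genes, gave 0.289% and 0.372% for VIP at the same depth, at unthinned medians of 1924 and 1909 UMIs, with 1241 and 960 of them left out. The Vip shares therefore stood far above the level of free RNA. At full depth, 38.0% and 35.2% of Vip nuclei held both VIP and CALB2, and 18.6% and 25.4% held neither. These intervals and shares cover counting error only.

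Vip nuclei made up 10.7% (95% exact interval 9.41 to 12.0) of labelled GABAergic nuclei in animal 1 and 12.7% (11.3 to 14.2) in animal 2. Among the CGE subclasses Vip, Frem1 and Lamp5 they formed the largest group, 42.0% and 43.6% of the nuclei, or 42.8% ± 1.15 (SD, n = 2). In animal 2, Vip made up 132 of 870 GABAergic nuclei (15.2%) in 2A and 132 of 1205 (10.95%) in 2B (two-sided Fisher's exact test, p = 0.00501, adjusted over 2 tests 0.01002), a test that counts nuclei as independent and compares these libraries alone. In animal 1 the same exact test gave p = 0.277 for 131 of 1151 nuclei against 111 of 1121. The difference between animals thus lay within the spread between libraries of 1 suspension.

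A gene that helped to make a cluster must differ from the rest, so the deposited labels allow no test. Genes were therefore split at random into 2 parts, and each labelled GABAergic nucleus received its subclass for the genes of 1 part from a classifier trained on the other part in the other animal. The training labels were still those of the authors, drawn from all genes and from canonical markers. The tests are therefore not fully independent of the labels. VIP, PROX1 and GAD2, the markers given with the label, are described without a p-value. So are FREM1 and SST, which name subclasses compared with Vip. Under the labels from the classifier 98.1% of Vip nuclei were called Vip again in each animal. Counts were summed per animal and compared with edgeR's quasi-likelihood test, and adjusted p-values are Benjamini-Hochberg values over all genes of a comparison. Fold changes are edgeR's log2 fold changes ± SE with n = 2 animals a side, whereas CPM levels refer to the deposited labels. In sums of nuclei, fewer expressing cells and less RNA per cell cannot be told apart.

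Against all other labelled GABAergic nuclei, 2592 of 15611 genes tested were called in Vip at an adjusted p under 0.05 (16.6%). Of these, 1123 were higher in Vip (7.19%) and 1469 lower (9.41%). Counts of listed genes below are to be read beside these shares. The 3841 other nuclei were 2146 Pvalb, 1020 Sst, 370 Lamp5 and 305 Frem1, so the contrast rests mostly on Pvalb and Sst. With the animal as a block the counts of called genes were 3979, 1760 and 2219. Under the deposited labels 2578 genes were called, and 2489 of them were among the 2592. Against the mean of the other 4 subclasses, which weights each alike, 1091 were higher and 956 lower of 11077 tested. This alternative changed the weighting, the genes tested and the fit together. Which direction held more genes thus depended on the setting, and the part of each change was not tested. Among the 1123 higher genes, 671 had their highest level in Vip of the 5 GABAergic subclasses in both animals and 208 of all 18 subclasses, while 131 were highest in Frem1 and 58 in Lamp5.

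By the naming rule, the gene furthest above the other GABAergic nuclei was CALB2, which encodes the calcium-binding protein calretinin. It stood at 222, 212, 185 and 187 CPM in the Vip libraries and at 1.16 and 0.802 CPM in the others, and edgeR gave a log2 fold change of 7.48 ± 0.19 (adjusted p = 2.05e-07). VIP followed with 6.31 ± 0.18, a description of the label. In no library did either gene overlap between Vip and the other GABAergic nuclei. RPRM, a p53-induced cell cycle inhibitor, was low in Vip, at 30.5, 32.8, 26.2 and 16.1 CPM, and at 0.272 and 0.241 CPM in the others (6.21 ± 0.44, adjusted p = 1.04e-05). ACVR1C, an activin and nodal receptor, stood at 256, 241, 338 and 348 CPM against 7.48 and 9.55 CPM (5.07 ± 0.21, adjusted p = 1.21e-06). ALDH1A3, an enzyme that makes retinoic acid, stood at 71.6, 64.0, 67.6 and 48.3 CPM against 2.79 and 2.17 CPM (4.62 ± 0.24, adjusted p = 1.66e-06). DKK2, a secreted modulator of Wnt signalling, stood at 781, 969, 778 and 775 CPM against 36.9 and 34.6 CPM (4.51 ± 0.11, adjusted p = 2.05e-07). For each of these genes all 4 Vip libraries lay above the other GABAergic nuclei of both animals.

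The other named genes above the other GABAergic nuclei were the RNA-binding protein gene RBM38 (4.48 ± 0.28), TEX47 (4.11 ± 0.19), the LIM-domain gene LIMD1 (4.09 ± 0.30), the chondroitin sulphate sulphotransferase gene CHST15 (4.06 ± 0.15), the microtubule-severing gene FIGN (4.04 ± 0.30) and the peptidase inhibitor gene PI15 (4.03 ± 0.48), with adjusted p from 7.02e-07 to 0.000303 in edgeR. CHST15 reached 329, 248, 385 and 356 CPM in Vip, and Sst was the next GABAergic subclass at 61.4 and 60.5 CPM. TEX47 was shared in part with Frem1, at 76.6 and 66.8 CPM in Vip and 43.7 and 31.1 CPM in Frem1. The receptor tyrosine kinase genes EGFR, RET and KIT were chosen after their values were seen, and went in both directions. EGFR, the epidermal growth factor receptor gene, had 539 and 680 CPM in Vip, its highest level of the 18 subclasses in both animals, and 44.0 and 49.4 CPM in the other GABAergic nuclei (3.66 ± 0.15, adjusted p = 1.11e-06). The next of the 18 subclasses had 375 and 390 CPM. Against Frem1 edgeR called EGFR higher, but not with equal nuclei thinned to 2000 UMIs (0.56, adjusted p = 0.0613, from 1.03e-06 over the alternatives). RET, the receptor gene for the GDNF family of ligands, had 89.2 and 90.6 CPM in Vip, again the highest of the 18, and 8.50 and 11.1 CPM in the others (3.14 ± 0.18, adjusted p = 2.70e-06). KIT, the stem cell factor receptor gene, was lower at 4.74 and 8.17 against 96.5 and 113 CPM (-3.64 ± 0.23, adjusted p = 5.07e-06). Among the others KIT lay mostly in Lamp5 and Frem1, so this contrast does not extend to Sst and Pvalb.

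**Figure D2:**
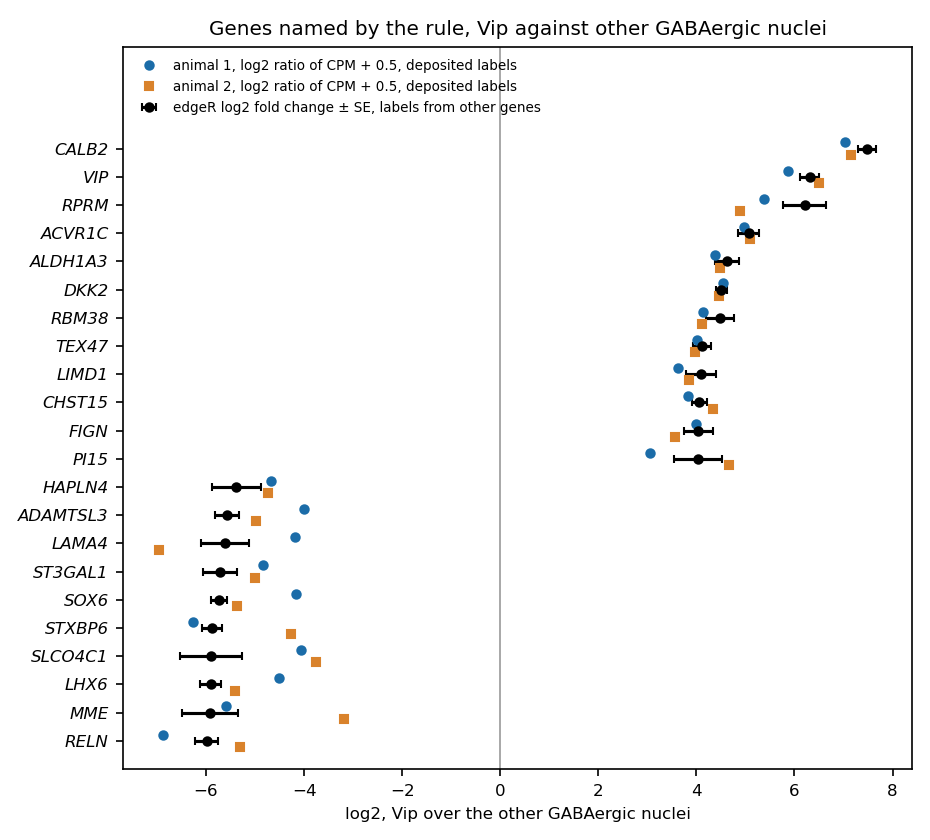
Log2 difference between Vip and the other labelled GABAergic nuclei for the 22 genes named by the rule. Black points and bars give edgeR's log2 fold change ± SE under labels from other genes, and coloured points give the log2 ratio of CPM plus 0.5 in each animal under deposited labels, with CALB2 at the upper end (7.48) and RELN at the lower (-5.99).

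The named genes below the other GABAergic nuclei came next. RELN, which encodes the extracellular protein reelin, stood at 1.52, 8.20, 11.04 and 16.1 CPM in the Vip libraries and at 617 and 549 CPM in the others (edgeR log2 fold change -5.99 ± 0.24, adjusted p = 4.07e-07), and it was highest in Lamp5. LHX6, a transcription factor of MGE interneurons, stood at 7.62, 8.20, 1.38 and 6.44 CPM against 190 and 178 CPM (-5.91 ± 0.21, adjusted p = 3.34e-07), and SOX6, which acts with it, at 45.7, 36.1, 6.90 and 30.6 CPM against 742 and 761 CPM (-5.74 ± 0.16, adjusted p = 2.05e-07). In every Vip library these 3 genes were far below the summed other nuclei of both animals. For RELN this did not extend to each subclass. At full depth, 2.48% and 3.03% of Vip nuclei held a RELN UMI, beside 2.16% and 3.64% of Pvalb nuclei. STXBP6 (-5.88 ± 0.20), the sialyltransferase gene ST3GAL1 (-5.72 ± 0.34) and ADAMTSL3 (-5.57 ± 0.24) were lower as well, with adjusted p from 3.23e-07 to 6.63e-06 in edgeR. A further 4 named genes had 2 or 3 counts over all Vip nuclei, so their ratios are given with counting intervals. HAPLN4, a perineuronal net link protein gene that was highest in Pvalb, was lower by a ratio of 42.5 (95% interval 11.7 to 351), and the transporter gene SLCO4C1 by 20.4 (6.97 to 99.4), with edgeR's adjusted p at 5.53e-05 and 0.000142. The laminin gene LAMA4 had a ratio of 48.8 (16.7 to 237) and the peptidase gene MME 20.96 (7.14 to 102), with adjusted p of 6.47e-05 and 7.24e-05. With the mean of the other 4 subclasses in place of their sum, LAMA4 (adjusted p = 0.114, from 4e-44 over the alternatives) and MME (0.999, from 1.35e-21) were no longer called, and among GABAergic subclasses both were highest in Sst. Against Frem1 alone, RELN (-1.50, adjusted p = 0.201), SOX6 (-0.15, 0.911) and STXBP6 (-0.62, 0.514) were not called by edgeR.

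Of 12 CGE lineage genes in the fit, 10 were higher in Vip and 1, RELN, was lower, with a median log2 fold change of 1.67 beside -0.01 over all genes tested. The 10 include PROX1, which as a marker given with the label is no support for the count. ADARB2, a brain RNA-editing family gene, stood at 2123, 1846, 1704 and 1776 CPM in the Vip libraries and 264 and 248 CPM in the others (2.85 ± 0.11, adjusted p = 3.42e-07, edgeR), and PROX1 gave 3.64 ± 0.15. The nuclear receptor NR2F2 (1.86 ± 0.20) and the nuclear factors NFIX (2.21 ± 0.12) and NFIB (1.49 ± 0.10) were higher too, with adjusted p from 2.65e-06 to 0.000226 in edgeR. NFIB stood higher still in Lamp5, at 1540 and 1513 CPM against 844 and 826 CPM in Vip.

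Of 8 MGE lineage genes tested, 7 were lower in Vip and 1 was higher, with a median log2 fold change of -3.67. The chromatin organiser SATB1 had 24.4, 13.1, 19.3 and 24.1 CPM in the Vip libraries and 380 and 309 CPM in the others (-4.09 ± 0.17, adjusted p = 1.11e-06, edgeR). MAF, a transcription factor of MGE interneurons in rodents, remained at 189, 182, 156 and 191 CPM in Vip against 653 and 568 CPM (-1.79 ± 0.11, adjusted p = 6.55e-06). The exception was ELFN1, a postsynaptic adhesion gene known from Sst cells. It had 34.0 and 46.8 CPM in Vip, 50.2 and 60.9 CPM in Sst and 3.23 to 9.81 CPM in the other 3 subclasses (1.24 ± 0.20, adjusted p = 0.00207), and with equal nuclei thinned to 2000 UMIs its log2 fold change was 0.94 and its call was lost (adjusted p = 0.108, from 1.69e-09 over the alternatives).

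Of 8 pan-GABAergic genes tested, 3 were higher in Vip, the transcription factors DLX1 and DLX2 and the receptor gene ERBB4, and 3 were lower, GAD1 and the label's marker GAD2 among them, with a median of 0.07. GAD2 had a log2 fold change of -1.21 ± 0.10, and GAD1, the other GABA-synthesising enzyme, was lower at 327, 285, 345 and 352 CPM against 482 and 517 CPM (-0.66 ± 0.12, adjusted p = 0.00357, edgeR). SLC32A1, the vesicular GABA transporter gene, stood at 55.3 and 46.0 CPM in Vip and 43.0 and 35.1 CPM in the others (0.39 ± 0.17, adjusted p = 0.175). It was not called by edgeR, but was against the mean of the other 4 subclasses (adjusted p = 0.0194, up to 0.638 over the alternatives). ERBB4, the neuregulin receptor gene, was higher at 17375 and 18862 CPM against 11933 and 12471 CPM (0.55 ± 0.11, adjusted p = 0.00845), and the transcription factor DLX2 was higher from a low level, 20.5 and 23.0 against 10.9 and 8.66 CPM (1.21 ± 0.25, adjusted p = 0.00946).

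**Figure D3:**
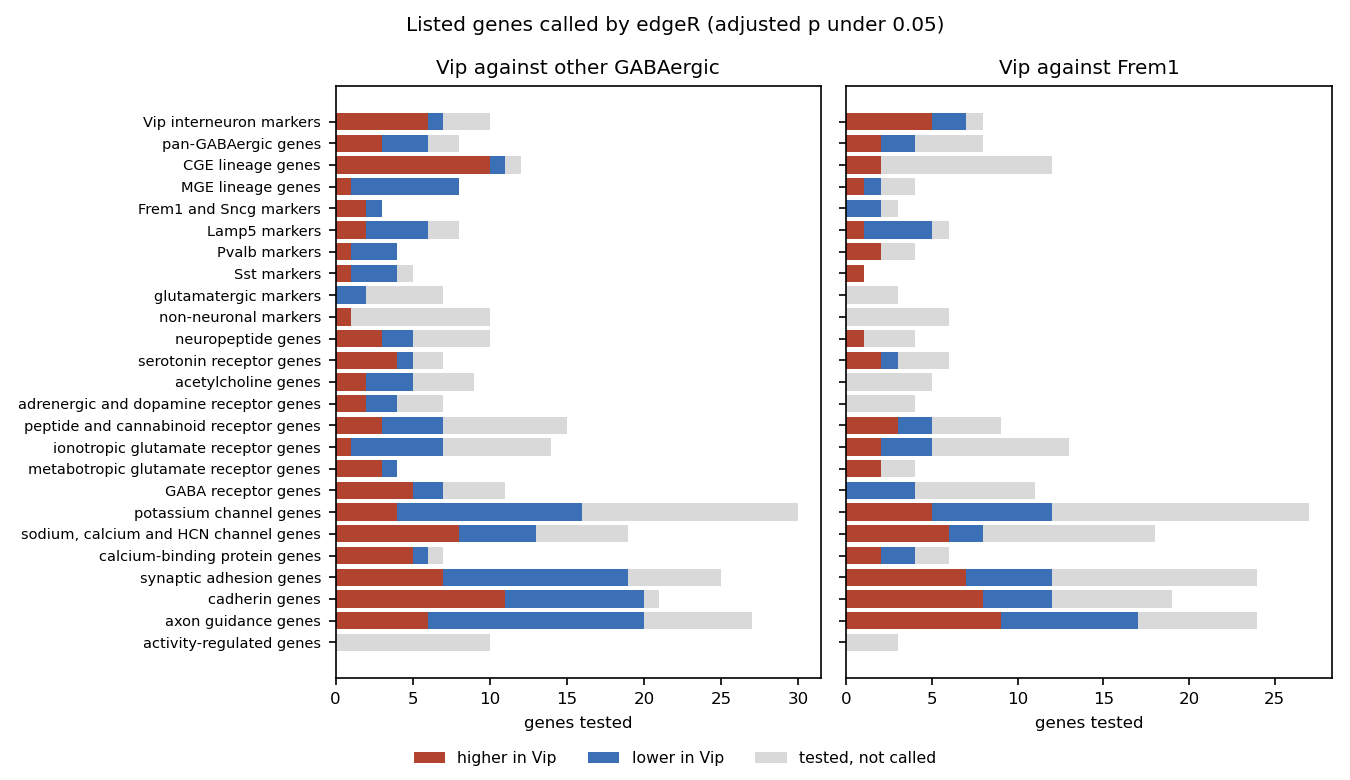
Number of listed genes tested and called by edgeR for Vip against the other GABAergic nuclei (left) and against Frem1 (right). Each bar splits the tested members of a list into higher in Vip, lower in Vip and not called, so that the CGE list, PROX1 included, reads 10, 1 and 1 of 12 on the left and 2, 0 and 10 of 12 on the right. Lists that hold VIP, PROX1 or GAD2 count these markers of the label too. Over all genes tested, 7.19% were higher and 9.41% lower on the left, and 6.28% and 6.59% on the right.

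Among 10 neuropeptide genes in the fit, CCK and GAL were higher in Vip besides VIP, which the label fixes, and SST and PNOC lower, with a median of 0.09. CCK, cholecystokinin, stood at 448, 451, 524 and 640 CPM in the Vip libraries and at 123 and 124 CPM in the others (2.06 ± 0.13, adjusted p = 4.73e-06, edgeR), but Frem1 (591 and 441 CPM) and Lamp5 (564 and 587 CPM) carried as much. GAL, galanin, rested on 10 UMIs over all Vip nuclei and 5 over the others, at 1.58 and 5.94 CPM against 0.068 and 0.321 CPM (4.24 ± 0.92, adjusted p = 0.0131). SST, somatostatin, had 7.11 and 14.1 CPM in Vip (-3.24 ± 0.25), a description of the labels, since the gene names the Sst subclass. PNOC, nociceptin, had 14.2 and 5.199 CPM (-2.61 ± 0.31, adjusted p = 0.000385). CHAT, choline acetyltransferase, which marks some Vip cells in rodents, was found with a UMI in 1 of 242 and 0 of 264 Vip nuclei, which limits nuclei with a UMI and not nuclei that express the gene.

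Of 6 calcium-binding protein genes tested against Frem1, 2 were higher and 2 lower, with a median of -0.26. Against the other GABAergic nuclei, 5 of 7 were higher and 1 lower, with a median of 1.42, beside 7.19% and 9.41% over all genes tested. Besides CALB2, these 5 higher genes included NECAB1 (1.89 ± 0.13), NECAB2 (1.98 ± 0.17) and CALN1 (1.42 ± 0.11), with adjusted p from 1.04e-05 to 4.11e-05 in edgeR. Frem1 carried more NECAB1 (229 and 233 CPM, against 137 and 138 in Vip) and NECAB2 (107 and 85.3 against 54.5 and 55.0), called by edgeR with adjusted p of 0.00176 and 0.00729 (log2 fold changes -0.71 ± 0.13 and -0.83 ± 0.18). With equal thinned nuclei these were -0.64 and -0.56 and were not called (0.109, from 3.43e-08, and 0.329, from 2.35e-05, over the alternatives), and NECAB2 was not called with DESeq2 either (-0.83, adjusted p = 0.101). CALB1, calbindin, stood at 4.57, 6.56, 1.38 and 1.61 CPM in Vip against 52.7 and 42.3 CPM in the others (-3.95 ± 0.35, adjusted p = 4.65e-05), so calretinin and calbindin lay on opposite sides.

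Of 7 serotonin receptor genes tested, HTR1E, HTR3A, HTR3B and HTR4 were higher in Vip and HTR2A was lower, with a median of 0.74. The ionotropic receptor subunit HTR3A had 28.9, 6.56, 8.28 and 16.1 CPM in the Vip libraries and 4.15 and 2.09 CPM in the others (2.14 ± 0.44, adjusted p = 0.00796, edgeR), and its partner subunit HTR3B 21.3, 19.7, 16.6 and 11.3 CPM against 3.33 and 1.52 CPM (2.80 ± 0.44, adjusted p = 0.00174). Both subunits were at levels as high or higher in Frem1, 30.3 and 19.6 CPM for HTR3A and 39.2 and 18.4 CPM for HTR3B, and at most 2.50 CPM in Lamp5, Sst and Pvalb. A UMI of HTR3A was seen in 7.02% and 6.06% of Vip nuclei at full depth, and in 0 of 2280 (which allows up to 0.132%) and 2 of 1767 oligodendrocytes, which are shallower. HTR1E (3.74 ± 0.43, adjusted p = 0.000241) and HTR4 (0.74 ± 0.14, adjusted p = 0.00452) couple to G proteins. HTR2A, a Gq-coupled receptor gene, stood at 12.2, 9.84, 11.04 and 6.44 CPM in Vip, below each of the other 4 subclasses in both animals, which had 28.8 to 101 CPM (-3.57 ± 0.21, adjusted p = 3.89e-06).

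Of 9 acetylcholine genes tested, 2 were higher and 3 lower, with a median of 0.21. CHRNA4, a subunit of the high-affinity nicotinic receptor, was higher at 131, 148, 97.9 and 105 CPM against 41.8 and 32.9 CPM (1.67 ± 0.17, adjusted p = 0.000189, edgeR), and the muscarinic receptor gene CHRM5 at 19.0 and 6.68 against 1.97 and 1.44 CPM (2.86 ± 0.51, adjusted p = 0.00456). CHRM2, another muscarinic receptor gene, had 0 UMIs in all 4 Vip libraries and was at least 8.72-fold lower than in the other GABAergic nuclei, against a floor of 3 counts over all Vip nuclei (adjusted p = 0.00198). CHRNA5 also had 0 UMIs in Vip and was at least 2.15-fold lower (adjusted p = 0.0362), a call lost with DESeq2 (0.144, from 0.00472 over the alternatives). CHRNA3 had 1 UMI in Vip, for a ratio of 29.0 (95% interval 5.17 to 1151), but stood mostly in Lamp5. Against the mean of the other 4 subclasses its direction stayed but it was not called (adjusted p = 1, from 1.78e-11 over the alternatives).

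Adrenergic receptor genes split within a family. Of 7 adrenergic and dopamine receptor genes tested, 2 were higher and 2 lower, with a median of 0.02. ADRA1D was higher at 99.002, 91.8, 85.5 and 106 CPM against 21.1 and 23.7 CPM (2.06 ± 0.15, adjusted p = 2.61e-05, edgeR), and ADRA1A was lower at 41.1, 26.2, 37.2 and 35.4 CPM against 139 and 144 CPM (-1.95 ± 0.14, adjusted p = 1.81e-05). These are both Gq-coupled alpha-1 receptors, and the Vip libraries did not overlap the other nuclei for either, although Sst (43.4 and 35.0 CPM) and Frem1 (56.2 and 35.7 CPM) had ADRA1A levels near those of Vip. ADRB1, the beta-1 receptor gene, had 25.3 and 25.3 against 6.53 and 4.81 CPM (2.01 ± 0.27, adjusted p = 0.000910; with equal thinned nuclei 1.71 and adjusted p = 0.0536, from 1.32e-08 over the alternatives). ADRA2C had 0 UMIs in Vip and was at least 5.22-fold lower (adjusted p = 0.00964).

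Of 15 peptide and cannabinoid receptor genes tested, 3 were higher and 4 lower, with a median of 0.15. HCRTR2, an orexin receptor gene, stood at 550, 553, 582 and 687 CPM in the Vip libraries and 107 and 121 CPM in the others (2.33 ± 0.13, adjusted p = 3.89e-06, edgeR), and NMBR, the neuromedin B receptor gene, at 119, 75.4, 84.2 and 98.1 against 11.9 and 7.86 CPM (3.28 ± 0.20, adjusted p = 4.40e-06). The opioid receptor genes went in different directions. OPRM1, the mu receptor gene, was higher at 85.3, 82.0, 63.5 and 72.4 CPM against 19.9 and 12.9 CPM (2.21 ± 0.22, adjusted p = 9.07e-05), and Vip had its highest level of all 18 subclasses in both animals. OPRD1, the delta receptor gene, was lower at 6.09, 1.64, 2.76 and 4.83 CPM against 73.0 and 70.2 CPM (-4.74 ± 0.28, adjusted p = 3.89e-06), as was OPRK1, the kappa receptor gene, at 7.90 and 13.4 against 37.0 and 28.5 CPM (-1.79 ± 0.27, adjusted p = 0.00187). GRPR, the receptor gene for gastrin-releasing peptide, was lower at 3.16 and 2.23 CPM (-4.29 ± 0.34, adjusted p = 3.82e-05), and its level lay mostly in Lamp5, at 457 and 487 CPM.

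Of 14 ionotropic glutamate receptor genes tested, 1 was higher and 6 were lower, with a median of 0.00. The AMPA receptor subunit genes GRIA3 and GRIA4 were lower, GRIA3 at 143, 190, 214 and 191 CPM against 748 and 854 CPM (-2.17 ± 0.14, adjusted p = 6.63e-06, edgeR) and GRIA4 at 578 and 411 against 1308 and 1143 CPM (-1.35 ± 0.14, adjusted p = 0.000184). The kainate receptor gene GRIK1 (-2.85 ± 0.23, adjusted p = 4.05e-05) and the NMDA receptor gene GRIN2A (-1.03 ± 0.17, adjusted p = 0.00237) were lower as well. Of 4 metabotropic genes tested, 3 were higher and 1 lower. GRM7, a presynaptic receptor gene, stood at 1534, 1371, 1850 and 1710 CPM against 246 and 249 CPM (2.69 ± 0.13, adjusted p = 1.92e-06), and GRM4 at 227 and 212 against 52.0 and 49.9 CPM (2.12 ± 0.11, adjusted p = 2.89e-06). GRM8, of the same group III, was lower at 19.8, 14.8, 9.66 and 37.0 CPM against 255 and 222 CPM (-3.86 ± 0.17, adjusted p = 8.52e-07). For GABA receptors, 5 of 11 genes tested were higher and 2 lower, with a median of 0.08. The GABA-B subunit gene GABBR2 was lower, at 674 and 647 against 1380 and 1411 CPM (-1.12 ± 0.09, adjusted p = 4.02e-05).

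Of 30 potassium channel genes tested, 4 were higher and 12 lower, with a median of -0.41. KCNT1 and KCNT2, which encode sodium-activated potassium channels, lay on opposite sides. KCNT1 stood at 47.2, 64.0, 30.3 and 30.6 CPM in the Vip libraries and 470 and 427 CPM in the others (-3.77 ± 0.15, adjusted p = 4.07e-07, edgeR), and KCNT2 at 2405, 2611, 2465 and 2735 CPM against 561 and 614 CPM (2.07 ± 0.10, adjusted p = 2.46e-06). Frem1 and Lamp5 had KCNT2 at 2160 to 3235 CPM, and Sst and Pvalb at 78.4 to 190 CPM. KCND2, an A-type channel gene, was lower at 1018 and 1072 against 2735 and 2630 CPM (-1.43 ± 0.10, adjusted p = 7.44e-06), as were KCNH5 (-2.83 ± 0.17, adjusted p = 4.40e-06) and the auxiliary subunit gene KCNAB1 (-2.03 ± 0.18, adjusted p = 6.16e-05). KCNC4, a high-voltage-activated channel gene, was higher at 61.6 and 63.1 against 17.8 and 11.1 CPM (2.10 ± 0.23, adjusted p = 0.000281).

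Among 19 sodium, calcium and HCN channel genes tested, 8 were higher and 5 lower, with a median of 0.28. CACNA1H, a low-voltage-activated calcium channel gene, stood at 139, 153, 130 and 134 CPM in Vip and 24.3 and 20.5 CPM in the others (2.59 ± 0.14, adjusted p = 1.98e-06, edgeR). CACNA1E, an R-type channel gene, was lower at 64.0 and 88.4 against 341 and 383 CPM (-2.33 ± 0.16, adjusted p = 9.13e-06). The auxiliary subunits differed in the same way, with CACNB2 higher (2.02 ± 0.16, adjusted p = 3.56e-05) and CACNB4 lower (-1.95 ± 0.09, adjusted p = 2.04e-06). The pacemaker channel gene HCN4 had 53.7 and 48.3 against 12.2 and 12.6 CPM (2.00 ± 0.19, adjusted p = 6.07e-05), and SCN1A, a sodium channel gene, 497 and 449 against 843 and 844 CPM (-0.86 ± 0.09, adjusted p = 0.000225).

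Of 21 cadherin genes tested, 11 were higher and 9 lower, with a median of 0.51. CDH10 stood at 918, 1000, 730 and 676 CPM in the Vip libraries and 120 and 112 CPM in the others (2.82 ± 0.14, adjusted p = 1.60e-06, edgeR), CDH12 at 674 and 633 against 145 and 117 CPM (2.26 ± 0.12, adjusted p = 1.91e-06), and CDH4 at 1297 and 1229 against 260 and 286 CPM (2.19 ± 0.10, adjusted p = 1.18e-06). Protocadherin genes PCDH15 (-2.92 ± 0.15, adjusted p = 3.48e-06) and PCDH9 (-2.72 ± 0.14, adjusted p = 2.68e-06) were lower. Of 25 synaptic adhesion genes tested, 7 were higher and 12 lower, with a median of -0.31. The receptor phosphatase gene PTPRD (1.67 ± 0.12), the neuroligin gene NLGN1 (1.06 ± 0.09), SLITRK1 (1.67 ± 0.17) and IL1RAPL2 (3.88 ± 0.43) were higher, with adjusted p from 1.57e-05 to 0.000286, and LRRTM4 (-2.12 ± 0.18) and the latrophilin gene ADGRL2 (-2.90 ± 0.18) lower, with adjusted p of 3.57e-05 and 7.11e-06.

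Of 27 axon guidance genes tested, 6 were higher and 14 lower in Vip, with a median of -0.83. SEMA5B, a semaphorin gene, was higher at 108, 107, 143 and 98.1 CPM against 17.9 and 21.9 CPM (2.49 ± 0.17, adjusted p = 1.37e-05, edgeR), as were the netrin receptor gene DCC (1.47 ± 0.12, adjusted p = 4.16e-05) and the ephrin gene EFNB2 (1.06 ± 0.15, adjusted p = 0.00138). SEMA3A, a secreted semaphorin gene, was lower at 27.4, 62.3, 13.8 and 17.7 CPM against 245 and 238 CPM (-3.42 ± 0.21, adjusted p = 4.87e-06), and UNC5D, another netrin receptor gene, at 302 and 335 against 1072 and 939 CPM (-1.59 ± 0.10, adjusted p = 9.76e-06). SLIT2, a secreted repellent, had 186 and 169 against 907 and 908 CPM (-2.47 ± 0.10, adjusted p = 1.11e-06), but Pvalb alone held 1422 and 1414 CPM, and against the mean of the other 4 subclasses SLIT2 was higher in Vip (0.93, adjusted p = 0.000262, the highest over the alternatives). Of 10 activity-regulated genes tested, 0 were called by edgeR, with 0 higher and 1 lower at an unadjusted p under 0.05 and 0 by DESeq2.

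Frem1 nuclei, 166 in animal 1 and 139 in animal 2, were compared with Vip in the same way. EdgeR called 1234 of 9586 genes tested (12.9%), 602 higher (6.28%) and 632 lower (6.59%) in Vip. Counts of listed genes against Frem1 are likewise to be read beside these shares. DESeq2 called 753 of the same 9586 genes, and with equal nuclei thinned to 2000 UMIs edgeR called 666 of 4845. Of the 12 CGE lineage genes, 2 were higher and 0 lower, with a median of -0.23 beside 0.01 over all genes tested, and the 2 are NR2F1 and PROX1, a marker given with the label. DESeq2 called 1 of the 12 higher and 0 lower, and NR2F1 was not called there. With the animal as a block NFIX was also called higher (adjusted p = 0.0023, edgeR, up to 0.941 over the alternatives) and NFIB lower (0.0123, up to 0.297), the latter also with doublets removed (0.0417). ADARB2 (-0.13 ± 0.11, adjusted p = 0.574), CCK (0.03 ± 0.14, adjusted p = 0.946) and NR2F2 (-0.30 ± 0.20, adjusted p = 0.473) were not called. CALB2 was higher in Vip (4.79 ± 0.25, adjusted p = 1.98e-07) and GAD1 lower (-0.998 ± 0.12, adjusted p = 7.31e-05). The markers given with the label had log2 fold changes of 3.30 ± 0.30 (VIP), 1.00 ± 0.18 (PROX1) and -1.01 ± 0.12 (GAD2). Among Frem1 nuclei, 7 of 166 in animal 1 and 0 of 139 in animal 2 had at least 3 UMIs of VIP, against 37 of 242 and 46 of 264 among Vip nuclei.

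The genes named higher in Vip than in Frem1 included abundant transcripts. THSD7B, a thrombospondin-domain gene, stood at 1832, 1738, 1785 and 1438 CPM in the Vip libraries and at 22.3 and 23.1 CPM in Frem1 (6.36 ± 0.16, adjusted p = 3.13e-10, edgeR), and PLPP4, a lipid phosphatase gene, at 1749, 1804, 1687 and 1561 against 46.4 and 57.6 CPM (4.86 ± 0.13, adjusted p = 5.18e-10). PI15 had 0 UMIs in Frem1 and was at least 18.5-fold higher in Vip, against a floor of 3 counts over all Frem1 nuclei (adjusted p = 9.87e-05). The genes ALDH1A3, KCNMB2, COBLL1 and RPRM had 1 UMI each in Frem1 and LZTS1 3, with ratios of 126 (95% interval 22.2 to 4991), 68.5 (12.0 to 2736), 64.7 (11.3 to 2586), 52.5 (9.12 to 2104) and 28.4 (9.48 to 140), and adjusted p from 2.65e-06 to 0.000557 in edgeR. KCNMB2, an auxiliary subunit gene of BK potassium channels, separated Vip from Frem1 but was not called against all other GABAergic nuclei (-0.46 ± 0.20, adjusted p = 0.180), and Sst and Pvalb held 42.2 to 69.3 CPM. RET, chosen after its values were seen, had 0.892 and 5.76 CPM in Frem1 (4.82 ± 0.39, adjusted p = 3.60e-06).

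**Figure D4:**
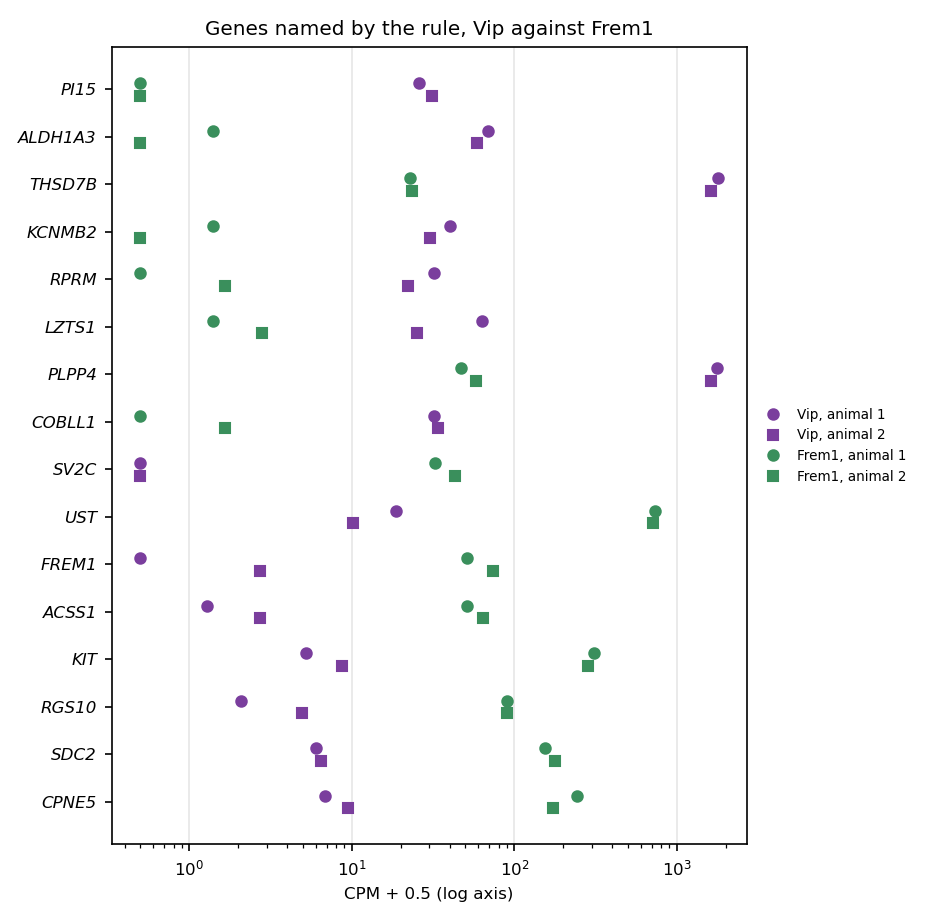
CPM plus 0.5, on a log axis, of the 16 genes named by the rule for Vip against Frem1, with circles for animal 1 and squares for animal 2. The 8 genes at the top, among them THSD7B and PLPP4, are higher in Vip, and the 8 at the bottom, among them UST and KIT, are higher in Frem1, with no overlap between subclasses.

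On the other side, SV2C, a synaptic vesicle protein gene, had 0 UMIs in all 4 Vip libraries and 32.1 and 42.6 CPM in Frem1, at least 32.0-fold more (adjusted p = 2.99e-05). FREM1, the matrix gene that names the subclass, had 3 UMIs in Vip, all in library 2A, for a ratio of 53.0 (95% interval 17.7 to 260), a description of the labels. UST, a uronyl sulphotransferase gene, stood at 21.3, 14.8, 8.28 and 11.3 CPM in Vip and 736 and 715 CPM in Frem1 (-5.55 ± 0.26, adjusted p = 1.01e-07, edgeR), and KIT, a receptor tyrosine kinase gene, at 3.05, 6.56, 12.4 and 3.22 against 310 and 285 CPM (-5.08 ± 0.20, adjusted p = 1.60e-08). The heparan sulphate proteoglycan gene SDC2 (-4.82 ± 0.24), the G protein regulator gene RGS10 (-4.82 ± 0.34), the acetate-activating enzyme gene ACSS1 (-5.10 ± 0.45) and CPNE5 (-4.56 ± 0.30) were lower in Vip too, with adjusted p from 1.01e-07 to 6.62e-06. KIT, UST and FREM1 were shared between Frem1 and Lamp5, where they stood at 849 and 889, 351 and 380, and 59.0 and 76.8 CPM.

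Listed genes also set the CGE neighbours apart. OPRM1 was higher in Vip than in Frem1 (3.65 ± 0.36, adjusted p = 1.87e-05, edgeR), as were HTR4 (2.69 ± 0.24, adjusted p = 8.55e-06), GRM7 (1.85 ± 0.16, adjusted p = 6.25e-06), NOS1, which encodes neuronal nitric oxide synthase (3.26 ± 0.39, adjusted p = 8.95e-05), and ELFN1 (2.42 ± 0.36, adjusted p = 0.000510). HTR2A (-2.64 ± 0.38, adjusted p = 0.000335) and GRPR (-3.37 ± 0.45, adjusted p = 0.000231) were lower in Vip. Of 24 axon guidance genes tested, 9 were higher and 8 lower, with a median of 0.11. SLIT2 was higher in Vip (3.37 ± 0.24, adjusted p = 1.54e-06), and UNC5D (-3.39 ± 0.13, adjusted p = 1.60e-08), SEMA3A (-3.71 ± 0.34, adjusted p = 8.54e-06) and DCC (-1.50 ± 0.17, adjusted p = 7.37e-05) were lower. UNC5D stood at 3852 and 3260 CPM in Frem1 and 302 and 335 CPM in Vip. Among 19 cadherin genes tested, 8 were higher, among them CDH4, CDH10 and CDH12 (1.12 to 1.27), and 4 lower, among them PCDH15 (-2.80 ± 0.19, adjusted p = 1.08e-06), with a median of 0.42. Of 27 potassium channel genes 5 were higher and 7 lower, and of 11 GABA receptor genes 0 were higher and 4 lower. Of 5 acetylcholine genes and 4 adrenergic and dopamine receptor genes tested, 0 were called against Frem1. CHRNA4 (0.49, adjusted p = 0.0211, up to 0.661 over the alternatives) and GRM4 (0.42, 0.0126, up to 0.793) were called higher by edgeR only with the animal as a block. Of 3 activity-regulated genes tested, 0 were called by edgeR, 0 had an unadjusted p under 0.05 and 0 were called by DESeq2.

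The annotation divided the subclass into 2 types, Vip_1 with 305 nuclei and Vip_2 with 201. Vip_1 held 64.1%, 67.6%, 53.8% and 56.8% of Vip nuclei in libraries 1A, 1B, 2A and 2B, or 60.5% ± 7.35 over animals (SD, n = 2). Libraries of an animal did not differ detectably in this share (two-sided Fisher's exact test, p = 0.590 and 0.710, adjusted over 2 tests 0.710 for both), and those of animal 1 both lay above those of animal 2. Vip_2 nuclei were shallower, with median UMIs of 4402 and 3803 against 5135 and 5313.5 in Vip_1. The types came from clusters of the same counts, so their levels are described without a test. Of 6284 genes considered, 136 were at least 2-fold higher, in CPM plus 0.5, in Vip_1 in both animals (2.16%) and 75 in Vip_2 (1.19%).

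Vip_1 was marked by DCC, at 378 and 496 CPM against 44.7 and 101 CPM in Vip_2, and by lower-level genes. FER1L6, a ferlin family gene, had 20.3 and 29.7 against 2.63 and 0 CPM, GLDN, gliomedin, 21.4 and 35.7 against 2.63 and 5.93 CPM, and DAAM2, a formin of Wnt signalling, 45.1 and 45.2 against 5.26 and 9.89 CPM. The rule that chose these genes required the ratio in both animals. Vip_2 was marked by CDH13, T-cadherin, at 673 and 498 CPM against 103 and 95.2 CPM, by PLXDC2 at 121 and 180 against 16.9 and 28.5 CPM, and by the adaptor gene SHC3 at 97.3 and 81.1 against 16.9 and 14.3 CPM. TACR3, the receptor gene for neurokinin B, had 49.96 and 37.6 CPM in Vip_2 and 0 and 2.38 CPM in Vip_1. Against Frem1, where it had 0 UMIs, TACR3 over all Vip nuclei was at least 10.2-fold higher.

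Shared Vip genes also differed in level between the types. VIP stood at 266 and 305 CPM in Vip_1 and 184 and 131 CPM in Vip_2, CALB2 at 198 and 174 against 263 and 206 CPM, and CCK at 500 and 721 against 331 and 340 CPM. The GABA-synthesising enzymes took opposite orders, with GAD2 at 204 and 201 CPM in Vip_1 and 358 and 342 CPM in Vip_2, and GAD1 at 348 and 408 against 213 and 249 CPM. THSD7B, far above Frem1 in either type, was higher in Vip_2, at 3747 and 2699 against 946 and 979 CPM. Among receptors, NMBR (121 and 118 against 44.7 and 45.5 CPM), the somatostatin receptor gene SSTR4 (19.2 and 24.98 against 0 and 1.98 CPM) and the cholecystokinin receptor gene CCKBR (29.3 and 29.7 against 0 and 9.89 CPM) lay on the side of Vip_1. NOS1 lay on the side of Vip_2, at 78.9 and 85.0 against 32.7 and 33.3 CPM. These listed genes were singled out after their values were seen.

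**Figure D5:**
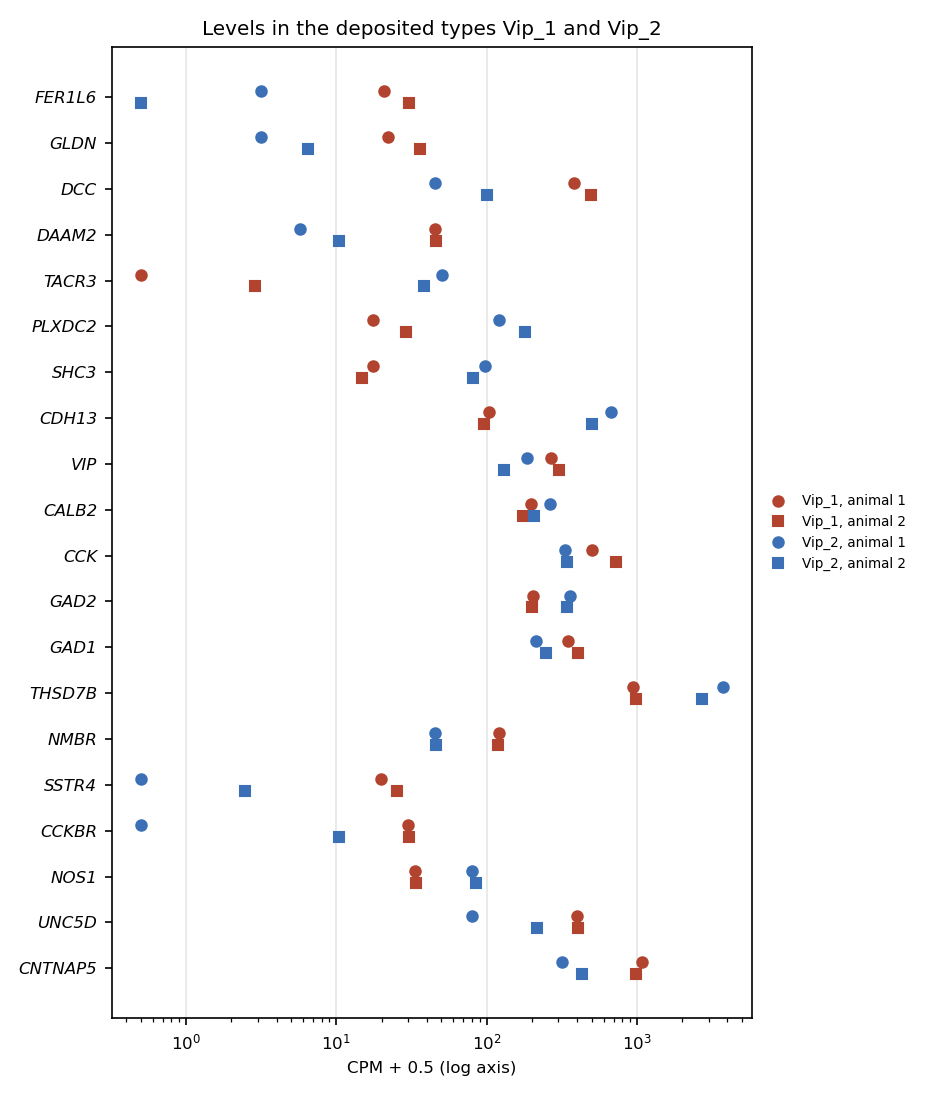
CPM plus 0.5, on a log axis, of 20 genes in the deposited types Vip_1 (red) and Vip_2 (blue), with circles for animal 1 and squares for animal 2. From the top, 4 genes name Vip_1 and 4 name Vip_2 by the rule, and below them stand listed genes, of which VIP and CCK lie toward Vip_1 and THSD7B and GAD2 toward Vip_2.

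Between animals, Vip nuclei had non-overlapping libraries for 2842 of 6799 genes considered (41.8%), and for 145 of them (2.13%) the animals differed at least 2-fold. Of these, 40 were higher in animal 2 and 105 in animal 1, and with 1 animal on each side there is no replicate check. With 2 libraries a side, non-overlap is frequent even where nothing differs, so the 41.8% is not read as a difference between animals. The largest ratio was that of LRRC36, at 32.0 and 57.4 CPM in libraries 1A and 1B and 2.76 and 6.44 CPM in 2A and 2B, 9.02-fold. The other GABAergic nuclei differed likewise for LRRC36, at 25.9 and 2.25 CPM. TINAG, an extracellular matrix gene, had 47.2 and 45.9 against 8.28 and 9.65 CPM in Vip, 5.003-fold, while the other GABAergic nuclei had 1.63 and 1.12 CPM. NKAIN3 (4.99-fold) and MAF1, a repressor of RNA polymerase III (3.69-fold), completed the genes named for animal 1. For animal 2, STXBP6 (3.89-fold), the ribosomal protein gene RPL15 (3.53-fold) and TTYH1 (2.94-fold) were named, all at most 38.6 CPM in any Vip library.

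Markers of other cell types were low but present in Vip nuclei. The 8 glutamatergic markers with a symbol summed to 99.5 and 120 CPM in Vip and 507 and 540 CPM in the other GABAergic nuclei, with 0 of 8 at 0 counts in Vip, and 0 were higher and 2 lower of 7 tested. The 14 non-neuronal markers with a symbol summed to 366 and 301 CPM in Vip and 278 and 249 CPM in the others, with 2 and 4 of them at 0 counts in Vip. Of 10 tested, 1 was higher and 0 lower, the astrocyte glutamate transporter gene SLC1A3, at 37.1 and 38.6 against 18.7 and 17.6 CPM (1.07 ± 0.18, adjusted p = 0.00324, edgeR; with equal thinned nuclei 0.56 and adjusted p = 0.513, from 6.64e-05 over the alternatives). The part of RNA from other cells in the Vip levels was not tested. Of the marker lists of the other interneurons, 2 of 8 Lamp5 markers tested were higher in Vip and 4 lower, 1 of 4 Pvalb markers was higher and 3 lower, 1 of 5 Sst markers was higher and 3 lower, and 2 of 3 Frem1 and Sncg markers were higher and 1 lower. Of the Vip marker list, which holds the label's own markers and so gives no count here, SYNPR, a synaptic vesicle protein gene, stood at 543 and 496 against 301 and 265 CPM (0.83 ± 0.10, adjusted p = 0.000336, edgeR), and the myosin-binding protein gene MYBPC1 at 128 and 131 against 12.9 and 10.8 CPM (3.43 ± 0.14, adjusted p = 5.11e-07).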

How the data were processed

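Single-nucleus RNA was measured in 4 droplet libraries from 2 animals. The authors aligned and counted reads with Cell Ranger, which the labels give as 6.1.1 and the matrix headers as 7.1.0, and deposited raw UMI counts per gene and nucleus with a table of clusters, classes, subclasses and types. The deposited doublet score, a fraction from Scrublet, was computed by the authors, and their clusters and labels were used as given, with no nucleus reclustered. Their quality rule kept nuclei with over 700 and under 6500 genes and under 40000 UMIs. Of 30800 genes, 11590 had a symbol, and PVALB was not analysed here.

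Counts were summed per animal, since the libraries of an animal share a suspension. Genes were split into 2 random parts, and a balanced logistic regression on 30 principal components of 2000 variable genes (scikit-learn 1.9.0, C = 0.01) assigned each labelled GABAergic nucleus its subclass from the part not tested, after training on the other animal. Genes passing filterByExpr were tested with edgeR 4.0.16 (R 4.3.3, TMM, quasi-likelihood, no block) at a Benjamini-Hochberg adjusted p of 0.05. DESeq2 1.42.0 was an alternative. Sums of an animal share that animal: over 6296 genes, deviations of Vip correlated with those of the other subclasses at 0.215 to 0.322. Named genes had a symbol and at least 20 CPM on the higher side in both animals, or in the higher animal where animals were compared. The 12 called genes furthest above and the 10 furthest below the other GABAergic nuclei were taken, with the same direction in both animals. Against Frem1, 8 were taken each way. The 4 largest ratios were taken for each type (in both animals) and for each animal (libraries not overlapping). Listed genes were named besides, and a few genes are not reported here. A gene with 0 counts was given a bound from 3 counts over the group, and one with 1 to 3 a ratio with a 95% counting interval. The members and gene lists were chosen with earlier results of these data known. In data simulated for Vip against the other GABAergic nuclei (14977 genes), 35% of genes changed 2-fold and 76% of those changed 4-fold were recovered. Against Frem1 (9241 genes) the shares were 47% and 86%. The simulation gave all genes the same spread, drew the sums of an animal independently and fitted all genes together. The tests differ in each of these, so the shares need not hold for the real data.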

Additional observations from a re-analysis of the deposited data

Results flagged for a closer look

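A VIP signal appeared in nuclei that the annotation left without a subclass. Of 1334 GABAergic nuclei in clusters set aside by the authors, 7 (0.525%, 95% exact interval 0.211 to 1.08) held at least 3 VIP UMIs, against 83 of 506 labelled Vip nuclei (16.4%), 2 of 2146 Pvalb nuclei (0.0932%) and 0 of 4047 oligodendrocytes. All 7 lay among the 604 nuclei of doublet clusters, and 0 of 730 nuclei of ambiguous clusters had as many, at a median of 1871 UMIs against 8039 in the doublet clusters, a depth at which 3 VIP UMIs could be missed. The 7 nuclei had a median of 15187 UMIs, and their summed VIP level of 218 CPM stood beside 551 CPM of SV2B, a glutamatergic marker, where labelled Vip nuclei had 36.4 CPM.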

How the results depend on the processing

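With the replicate block (animal as the paired term) edgeR called 3979 genes against the other GABAergic nuclei, 1760 higher and 2219 lower, and 1768 against Frem1, and all 2592 and 1234 genes called without it were among them. With equal nuclei thinned to 2000 UMIs 1261 of 6480 genes tested were called (567 higher, 694 lower, of 15611 tested in full) and, against Frem1, 666 of 4845 (336 and 330, of 9586). DESeq2 called 753 (373 and 380) against Frem1. Against the mean of the other 4 subclasses 1091 genes were higher and 956 lower, and SLIT2 reversed to 0.93. The median log2 fold change without a filter on low counts was -0.22. Of 1498 values under alternatives for 204 results of named genes (a gene counts once per comparison), 1457 kept direction and side of the threshold, 29 lost and 11 gained the call, and 1 reversed. Vip was 2.07% of neurons and 8.93% of GABAergic nuclei with unlabelled ones added. Without either animal the share of Vip was 10.7% to 12.7%, that of Vip_1 55.3% to 65.7%, and the recovery of labels 98.1% to 98.1%; thinned recovery was 97.6%. At 3-fold, 24 genes differed between animals. Unthinned, VIP, CALB2 and CCK had a UMI in 58.2%, 56.5% and 73.6% of Vip nuclei (mean of animals), and 0 unlabelled nuclei held at least 10 VIP UMIs. Gene tests without an animal have no residual degrees of freedom and were not run. The cause of these shifts was not tested. With 2 animals of 1 sex, the detection limit of the real data was not measured. In the simulated data, differences of 2-fold were often not recovered.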
